A study of Mus musculus with 10 samples.

Results

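Astrocyte genes were followed through the Treg libraries as a set of 32 genes taken by name from the count table of 55401 gene IDs. No threshold on their values was used, but the set was chosen with earlier results of these data known. Shares of the set given beside shares of all genes are therefore descriptions. The set covers transporters, the water channel and gap junctions, cytoskeleton, enzymes, transcription factors, receptors, secreted proteins and acute phase proteins. All 32 genes were found in the table, and all were read in each of the 10 libraries.

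Astrocytes are the glial cells that clear glutamate and potassium from around neurons, couple to one another through gap junctions, line blood vessels with end-feet rich in aquaporin-4, and secrete matrix proteins and growth factor carriers. After injury or exposure to inflammatory cytokines they enlarge, raise intermediate filaments such as GFAP and secrete acute phase proteins, a state called reactive. Several of the 32 genes are also used by other cells. Glul, Mfge8, Cp and Lcn2, for example, are known in macrophages as well. Ednrb was also measured in the study as a gene of brain Tregs, so for this gene reads from Tregs and from astrocytes cannot be told apart.

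RNA-seq libraries had been made from Tregs of C57BL/6J mice, 2 in each of 5 groups. For RNA-seq the paper describes magnetic selection of cells bearing hCD2, which a Foxp3-hCD2 knock-in places on Foxp3-expressing cells. Its section opens with co-cultured cells and does not separate the groups, so the selection of SP-Tregs and Ischemia-Tregs is less certain. SP-Tregs came untreated from the spleen, and Ischemia-Tregs came from the brain 28 days after ischemic stroke. The other groups were Tregs kept for 6 days in contact with primary glial cells of neonatal mouse brain, most of them astrocytes, and were then collected from that culture. All co-cultures received 2 μg/mL anti-CD3, 2 μg/mL anti-CD28 and 20 ng/mL IL-2, and iB-Tregs (A) received nothing more. iB-Tregs (B) received in addition IL-33 at 20 ng/mL and serotonin at 10 μM. iB-Tregs (C) received the same factors as (B) and the chemokines CCL1 and CCL20, at 20 ng/mL each. A magnetic selection can leave glial cells or their RNA behind, and the share of Tregs in each selected sample is not given in the sources used here. The age of the donor mice of each library is not in the labels, nor do they state that the paired libraries of any group stem from different mice or wells, and a p-value given here therefore reflects the spread from library to library, possibly a technical one.

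Total counts ran from 5186728 to 6634583 in the SP-Treg and Ischemia-Treg libraries and from 15628261 to 16388161 in the iB-Treg libraries. Mitochondrial ribosomal RNA took 13.6% to 15.7% of the counts in the former and 0.121% to 0.169% in the latter, so spleen and brain libraries differed from co-culture libraries in make-up as well as in treatment, and these cannot be told apart. The defining Treg and T cell genes were present throughout. The sum of 14 such genes was 6002 to 6030 CPM in SP-Tregs, 7057 to 7413 CPM in Ischemia-Tregs, and between 4683 and 5173 CPM in the iB-Treg libraries. CPM is a count scaled to the size of its library, here with TMM factors, which equalize the bulk of genes between libraries. The counts of the SP-Treg and Ischemia-Treg columns stand beside the wrong gene ID over much of the table and were moved back before use, by 0 to 2 rows for these 32 genes.

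Most of the astrocyte genes were absent from the SP-Treg libraries and present at low levels in every co-culture. Of the 32 genes, 24 had no count in either SP-Treg library, 20 had none in either Ischemia-Treg library, 1 had none in iB-Tregs (A) or in (B), and 2 had none in (C). Counts in both libraries of a group were found for 4 genes in SP-Tregs, 10 in Ischemia-Tregs, 30 in iB-Tregs (A), 29 in (B) and 28 in (C). The SP-Treg and Ischemia-Treg libraries were shallower, and 3 counts over the group, the limit that a count of 0 allows, correspond to 0.316 CPM in SP-Tregs and 0.372 CPM in Ischemia-Tregs against 0.0752 to 0.0798 CPM in the iB-Treg groups. A gene without a count could have stood at any level up to these limits. The limits cover counting error only.

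Summed over the 32 genes, the level was 65.9 ± 6.67 CPM in SP-Tregs (SD, n = 2), 107 ± 40.4 in Ischemia-Tregs, 341 ± 1.14 in iB-Tregs (A), 415.5 ± 0.947 in (B) and 326 ± 2.22 in (C). The exact permutation test of 2 libraries against 2 cannot go below a p of 1 in 3, so the sums were not tested. A pair of genes carried much of them. Glul, glutamine synthetase, stood at 51.8 and 46.3 CPM in the SP-Treg libraries, and Mfge8, a secreted bridge between dying cells and the phagocytes that engulf them, at 10.0 and 9.72 CPM. Without Glul and Mfge8, a choice made after their values were seen, the sum was 5.12 and 8.76 CPM in SP-Tregs, 14.5 to 27.3 in Ischemia-Tregs, 168.6 to 168.9 in (A), 166.4 to 169.9 in (B) and 99.9 to 102.4 in (C). The other 30 genes therefore summed to overlapping levels in (A) and (B), and to less in both (C) libraries than in any (A) or (B) library. In bulk samples, the number of astrocytes left by the selection, their RNA per cell and RNA from other cells, Tregs included, cannot be told apart.

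**Figure D1:**
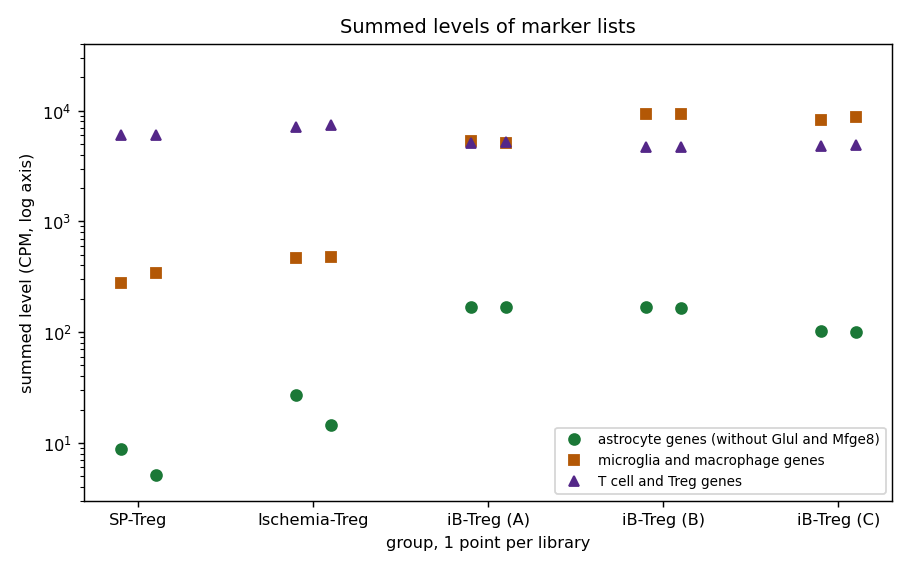
Summed level in CPM, on a log axis, of the astrocyte genes without Glul and Mfge8 (circles), of 17 microglia and macrophage genes (squares) and of 14 T cell and Treg genes (triangles), with 1 point per library in each of the 5 groups. Without Glul and Mfge8 the (A) and (B) libraries lie between 166.4 and 169.9 CPM and the (C) libraries between 99.9 and 102.4 CPM.

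Markers of microglia and macrophages also differed between groups and were far more abundant. Among the co-cultures their sum was lowest in (A), whereas that of the astrocyte genes without Glul and Mfge8 was lowest in (C). The 17 listed genes, all of them counted in all 6 co-culture libraries, summed to 5132 to 5338 CPM in iB-Tregs (A), 9337 to 9361 in (B) and 8270 to 8843 in (C), against 279 to 341 in SP-Tregs and 469 to 477 in Ischemia-Tregs. Among the most abundant, Lyz2, lysozyme of myeloid cells, reached 4205 and 4159 CPM in (B), and C1qa, a subunit of complement C1q, reached 854 and 883 CPM. Per kilobase of exon, the median gene of the microglia list was at 43.4, 83.5 and 60.3 CPM per kb in (A), (B) and (C), and the median astrocyte gene at 0.515, 0.689 and 0.338 CPM per kb. The part of these cells in the astrocyte gene values was not tested.

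The level of each gene per kilobase, averaged over the 6 co-culture libraries, ran over a wide range. Glul was highest at 43.4 CPM per kb, followed by Mfge8 at 10.8 and by Cpe, the carboxypeptidase that trims peptide hormones, at 7.71. Igfbp2 and Htra1 came next, at 5.29 and 4.61 CPM per kb. The genes most often used to define astrocytes stood much lower, with Gfap at 0.510 CPM per kb, the 17th of the 32, and Aqp4 at 0.251. At the bottom, S100b, a calcium-binding protein, was at 0.0226 CPM per kb from 4 counts in all, the neurotensin receptor gene Ntsr2 was at 0.0139 from 5 counts, and Gjb6, the gap junction protein connexin 30, had no count in any of the 10 libraries. The label of the set thus holds only in part, since among its defining genes some were present at a few CPM and others were at or near 0.

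**Figure D2:**
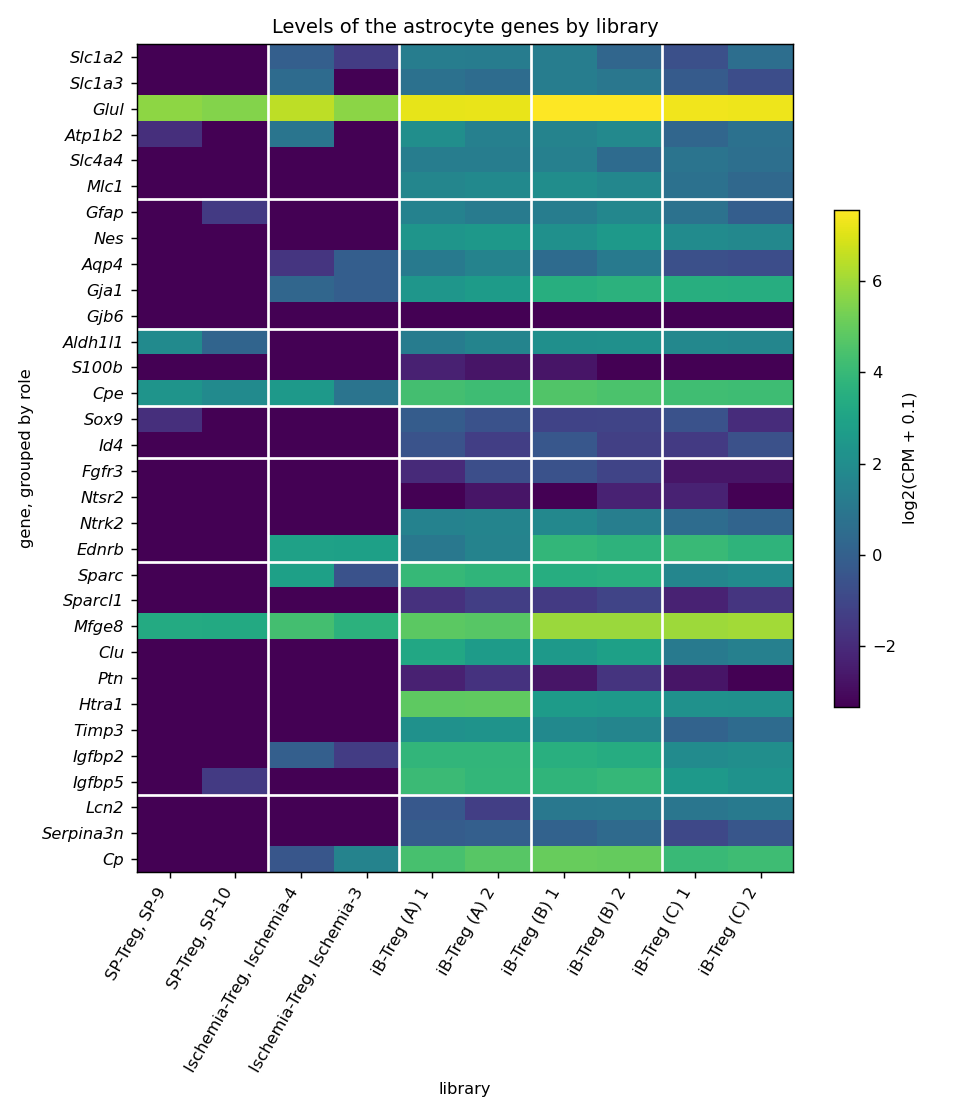
Level of each of the 32 genes (rows, grouped by role) in each of the 10 libraries (columns), as log2(CPM + 0.1), with the colour scale on the right. The darkest cells are genes without a count. The SP-Treg columns are dark outside Glul, Mfge8, Cpe and Aldh1l1, and the co-culture columns are filled for most genes, with Gjb6 at 0 throughout.

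Transporters of glutamate, potassium and bicarbonate were all present in the co-cultures. Slc1a2, the main glutamate transporter of mature astrocytes, was at 2.36 and 2.25 CPM in iB-Tregs (A), 2.38 and 1.10 in (B), and 0.523 and 1.41 in (C), with 0 in both SP-Treg libraries. Slc1a3, the second astrocyte glutamate transporter, was at 1.57 and 1.33 CPM in (A), 2.33 and 1.88 in (B), and 0.784 and 0.487 in (C). Mlc1, a membrane protein of perivascular end-feet, was at 3.10 and 3.48 CPM in (A), 3.99 and 3.19 in (B), and 1.57 and 1.19 in (C). For Slc1a3 and Mlc1 both (C) libraries lay below every (A) and (B) library, whereas for Slc1a2 the (B) and (C) libraries overlapped. Atp1b2, a subunit of the sodium and potassium pump, was at 4.03 and 2.56 CPM in (A), 2.85 and 3.40 in (B), and 1.10 and 1.57 in (C). Slc4a4, a sodium bicarbonate cotransporter, was at 2.36 and 2.35, 2.59 and 1.31, and 1.72 and 1.46 CPM in the same order, and its (B) and (C) libraries overlapped. Mlc1 and Slc4a4 had no count in any SP-Treg or Ischemia-Treg library.

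Of the cytoskeletal, water channel and gap junction genes, Gfap, the intermediate filament of astrocytes, was at 2.70 and 2.20 CPM in iB-Tregs (A), 2.33 and 3.19 in (B), and 1.62 and 0.866 in (C), with a single count in the SP-Treg libraries and none in the Ischemia-Treg libraries. Aqp4, the water channel of the end-feet, was at 2.16 and 2.81 CPM in (A), 1.30 and 2.09 in (B), and 0.523 and 0.487 in (C). Nes, nestin of immature and reactive astrocytes, was at 4.96 and 5.42 CPM in (A), 4.30 and 5.60 in (B), and 3.71 and 3.30 in (C). Among the co-cultures, these 3 genes were lowest in both (C) libraries. Gja1, connexin 43 and the main astrocyte gap junction protein, went the other way between (A) and the other co-cultures, at 5.11 and 6.14 CPM in (A), 11.4 and 12.6 in (B), and 11.3 and 10.9 in (C).

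The receptors differed from one another in pattern. Ednrb, the endothelin B receptor of reactive astrocytes, had no count in SP-Tregs, 7.48 and 7.10 CPM in Ischemia-Tregs, 1.97 and 2.81 CPM in iB-Tregs (A), 14.6 and 13.0 in (B), and 16.4 and 13.6 in (C). The (B) and (C) libraries were all above the Ischemia-Treg libraries, and these above the (A) libraries. Ntrk2, the BDNF receptor, which astrocytes make chiefly in a form without a kinase, was at 2.70 and 2.92 CPM in (A), 3.32 and 2.46 in (B), and 1.36 and 1.03 in (C). Fgfr3, a receptor of fibroblast growth factors, had 13 counts in (A), 18 in (B) and 2 in (C), too few to be tested. The transcription factors Sox9, of the astrocyte lineage, and Id4 stayed under 1 CPM in every library.

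Several secreted proteins ranked high among the members. Htra1, a secreted serine protease, was at 29.2 and 29.8 CPM in iB-Tregs (A), 6.16 and 5.70 in (B), and 4.49 and 4.28 in (C), and had no count in SP-Tregs or Ischemia-Tregs. Sparc, a collagen-binding matrix protein, was at 15.6 and 13.7 CPM in (A), 10.9 and 11.6 in (B), and 3.14 and 3.68 in (C). Igfbp2, a carrier of insulin-like growth factors, was at 14.1 and 14.4 CPM in (A), 11.8 and 10.6 in (B), and 3.71 and 4.01 in (C). Among the co-cultures, all 3 were highest in (A) and lowest in (C) with no overlap between groups. Igfbp5, another such carrier, was at 17.0 and 14.6, 13.9 and 15.2, and 5.80 and 4.55 CPM in (A), (B) and (C). Clu, the chaperone clusterin, was at 9.09 and 6.24, 5.91 and 7.11, and 2.14 and 2.60 CPM, and Timp3, an inhibitor of metalloproteinases held in the matrix, at 4.47 and 4.71, 3.47 and 2.98, and 0.993 and 1.30 CPM. For these genes too the (C) libraries lay below all others of the co-culture. Mfge8 differed from these genes in having its lowest co-culture values in (A), at 28.4 and 26.4 CPM, with 60.4 and 60.3 in (B) and 63.1 and 65.8 in (C). Sparcl1 and Ptn, a relative of Sparc and a growth factor, stayed under 0.4 CPM.

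Of the acute phase proteins, Cp, ceruloplasmin, a copper-carrying ferroxidase, was at 21.1 and 26.7 CPM in iB-Tregs (A), 32.7 and 32.1 in (B), and 16.4 and 18.0 in (C). Lcn2, an iron-scavenging lipocalin, was at 0.688 and 0.307 CPM in (A), 1.97 and 2.04 in (B), and 1.83 and 2.17 in (C). Serpina3n, a protease inhibitor that serves as a mark of reactive astrocytes, was at 0.787 and 0.870, 0.984 and 1.26, and 0.418 and 0.650 CPM. Among the co-cultures, Lcn2 was lowest in both (A) libraries, Cp and Serpina3n in both (C) libraries.

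**Figure D3:**
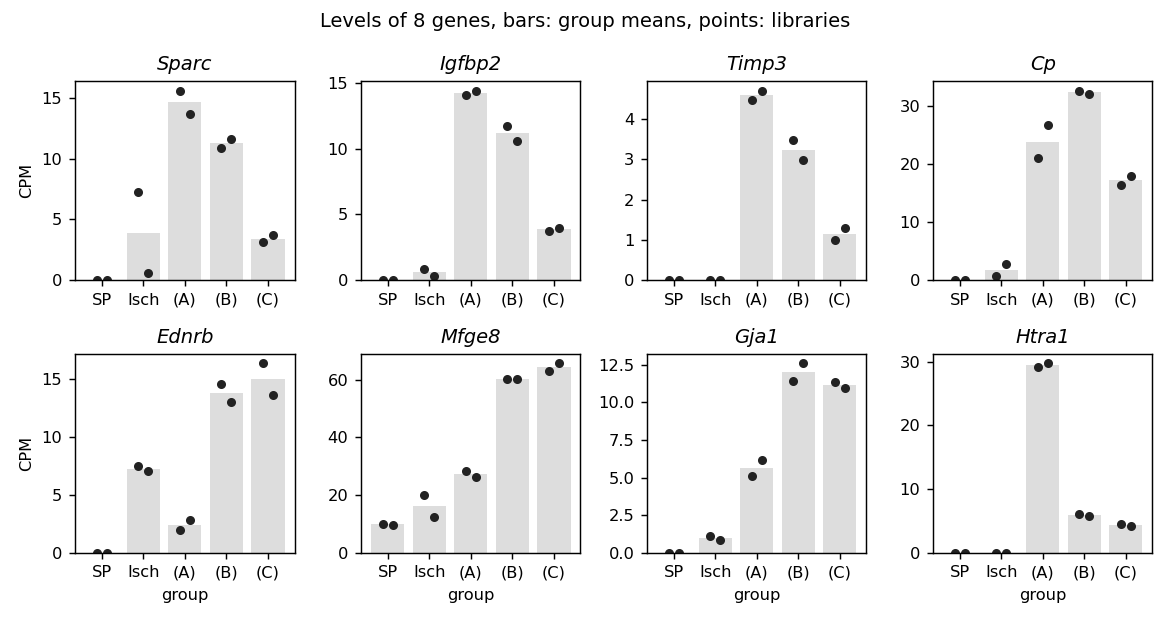
CPM of 8 genes in the 5 groups, with points for the libraries and bars for the group means, each panel on its own linear axis from 0. Sparc, Igfbp2, Timp3 and Cp are lowest of the co-cultures in (C), Ednrb, Mfge8 and Gja1 are higher in (B) and (C) than in (A), and Htra1 is at 29.2 and 29.8 CPM in (A) and at most 6.16 CPM in any other library.

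To compare groups, edgeR's quasi-likelihood test was fitted over all genes, and a gene was called where its p after Benjamini-Hochberg adjustment was under 0.05. Of the 32 genes, 26 passed the filter on low counts, and Gjb6, S100b, Fgfr3, Ntsr2, Sparcl1 and Ptn did not. Only 4 of them, Glul, Aldh1l1, Cpe and Mfge8, reached the cutoff of the 10-library fit, 0.532 CPM, in both SP-Treg libraries, and only 7 did in both Ischemia-Treg libraries, against 24 in (B). Most of the genes tested were kept for their co-culture counts and had to differ from SP-Tregs and Ischemia-Tregs, so the following counts describe the comparisons with spleen and brain and are not evidence of their own.

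Against SP-Tregs, 24 of the 26 were higher in iB-Tregs (B) and none was lower, where 40.6% of all genes tested were higher and 31.4% lower (71.9% in either direction). At an unadjusted p under 0.05 in edgeR, 24 were higher and 0 lower, and DESeq2 called 23 higher and 0 lower. The share of members that were higher was 92.3%. Higher genes numbered 23 in (A), against 41% of all genes (72.5% in either direction), and 23 in (C), against 40.4% (71.4% in either direction), again with none lower by edgeR, by DESeq2 or at an unadjusted p under 0.05, and these comparisons share the SP-Treg libraries. For (C), 18 passed without SP-9 or without SP-10, 20 without (C) replicate 1 and 19 without (C) replicate 2, and Aqp4, Gfap, Slc1a2, Slc1a3, Atp1b2 and Serpina3n each lost the call in 2 or more of these. The calls that depended on a single library were those of Lcn2 and Serpina3n for (A) and of Id4 for (B). With genes without a SP-Treg count set to their lower bound, the median fold over the 26 was 9.69 in (B), 8.38 in (A) and 5.69 in (C). Cp was at least 102.7-fold higher in (B) than in SP-Tregs, Ednrb at least 43.8-fold and Gja1 at least 38.0-fold. With SP-10 as the lone spleen library these bounds were 42.2, 18.0 and 15.6, and with SP-9 60.5, 25.8 and 22.4, an alternative added after the data were seen. Glul, already present in spleen, was higher in (B) by 1.92 ± 0.14 on the log2 scale (SE, adjusted p = 2.2e-09), and Mfge8 by 2.61 ± 0.16 (adjusted p = 1.9e-10). Aldh1l1, the folate enzyme much used as an astrocyte marker, was at 3.57 and 1.02 CPM in SP-Tregs and at 4.25 and 4.34 CPM in (B), a difference of 0.79 ± 0.42 that missed the threshold in edgeR's quasi-likelihood test (adjusted p = 0.11). Without SP-9 it was 2.06 (adjusted p = 0.012) and without TMM factors 1.35 (adjusted p = 0.011), both past the threshold. Sox9 missed it throughout. The median of all genes stood at 0.16 to 0.18 on the log2 scale in these comparisons, and leaving out the TMM factors would raise every log2 change against SP-Tregs by 0.57 to 0.65. Over all genes tested, (B) against SP-Tregs gave 5322 higher and 4116 lower with these factors and 7726 and 2158 without, and the splits for (A) and (C) moved likewise, from 5386 and 4132 to 7900 and 2095 and from 5300 and 4071 to 7610 and 2177.

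Ischemia-Tregs held counts of few astrocyte genes. Against SP-Tregs, 7 of the 26 were higher and 1 was lower, where 20.6% of all genes tested were higher and 17.6% lower (38.3% in either direction), and 10 of the 26 had no count in either group. Ednrb was at least 23.2-fold higher, with 34 and 25 counts in the Ischemia-Treg libraries (adjusted p = 7.5e-06), and at least 9.53-fold without SP-9 and 13.6-fold without SP-10. Sparc had 33 and 2 counts and Cp 3 and 10, so that these genes were higher than in SP-Tregs by at least 13.8-fold and 5.11-fold but uneven between the libraries. Without Ischemia-4, Sparc kept 2 counts, and without Ischemia-3, Cp kept 3, which is no more than the limit. Gja1 had 5 and 3 counts, and Igfbp2 had 4 and 1. Aldh1l1 was the gene that fell, from 20 and 4 counts in SP-Tregs to none, at least 6.79-fold. Without SP-9 that bound was 2.75, without Ischemia-4 2.96 and without Ischemia-3 3.83. Glul rose by 0.53 ± 0.17 (adjusted p = 0.020) and Mfge8 by 0.75 ± 0.22 (adjusted p = 0.014) in edgeR's quasi-likelihood test on the log2 scale. Without SP-9, 4 of the 26 were past the threshold, with Cp, Gja1, Igfbp2 and Mfge8 lost, and without Ischemia-4 also 4, with Sparc, Glul, Igfbp2 and Mfge8 lost. Without SP-10, Glul and Igfbp2 lost their call among 6 that passed, and without Ischemia-3, Cp lost it among 9. Without TMM factors, Glul and Mfge8 lost their call as well, and the split over all genes moved from 2708 higher and 2313 lower to 1802 and 2989. Compared with Ischemia-Tregs, iB-Tregs (B) were higher in 21 of the 26 and lower in none, where 39.2% of all genes tested were higher and 30.2% lower (69.4% in either direction). DESeq2 gave the same counts of 21 and 0, and at an unadjusted p under 0.05 edgeR had 23 higher and 0 lower. Atp1b2 lost its call without Ischemia-3 or either (B) library, and Sparc without Ischemia-3. Without TMM factors the split over all genes moved from 5149 higher and 3961 lower to 8415 and 1715. Ednrb differed least among the called genes expressed in both Ischemia-Treg libraries, by 0.92 ± 0.25 (adjusted p = 0.0038).

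iB-Tregs (B), given IL-33 and serotonin in addition, were compared with (A). Other differences between the cultures cannot be told apart from these factors. Of the 26 genes, 8 rose and 3 fell, where 15.4% of all genes tested rose and 14.8% fell (30.2% in either direction; without TMM factors 1862 of all genes rose and 3177 fell in place of 2270 and 2173), and the median change was 0.08 on the log2 scale against -0.01 over all genes. Ednrb rose by 2.53 ± 0.17 (adjusted p = 5.1e-11), Lcn2 by 1.99 ± 0.38 (adjusted p = 0.00032), Mfge8 by 1.14 ± 0.07 (adjusted p = 4.9e-12) and Gja1 by 1.09 ± 0.14 (adjusted p = 1.3e-06). Smaller rises were found for Aldh1l1, Cp, Glul and Cpe, from 0.73 down to 0.30. Htra1 changed by -2.31 ± 0.11 (adjusted p = 8.1e-14), and Sparc and Igfbp2 by -0.38 and -0.35. The remaining 15 genes, among them Gfap at 0.17 ± 0.27 (-0.074 without (B) replicate 2) and Aqp4 at -0.55 ± 0.30, did not pass the threshold. In the same comparison 14 of the 17 microglia and macrophage genes rose and 1 fell, with a median of 0.96, and 7 of 14 T cell genes fell, with a median of -0.13. The rises of Ednrb, Lcn2, Mfge8, Gja1 and Glul and the fall of Htra1 were kept in every alternative run. Without (A) replicate 1 there were 8 calls, without Aldh1l1, Igfbp2 and Sparc, and without (A) replicate 2 there were 10. Without (B) replicate 1 there were 9, without Cpe and Sparc, and without (B) replicate 2 also 9, without Aldh1l1 and Igfbp2. The call of Cpe was also lost without (A) replicate 2, as was that of Igfbp2, and Cp lost its call in the fit over all 10 libraries.

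iB-Tregs (C), given CCL1 and CCL20 in addition, were compared with (B), under the same limit. Of the 26 genes, 14 fell and none rose, where 2.28% of all genes tested fell and 1.47% rose (3.76% in either direction). The 26 stem from a set chosen with earlier results of these data known. At an unadjusted p under 0.05, 19 fell and 0 rose, and DESeq2 called 10 lower and 0 higher. Of the 26, 21 reached the cutoff of the co-culture fit, 0.520 CPM, in both (C) libraries, and 12 of these were among the 14. The median change of the 26 was -0.89 on the log2 scale, against 0.01 over all genes tested. The 14 covered most roles, with 4 of 6 genes grouped under transport, the enzyme gene Glul being among the 4. They also held 2 of 4 cytoskeletal, water channel and gap junction genes, 1 of 2 receptors and 5 of 7 secreted proteins tested. Sparc changed by -1.73 ± 0.15 (SE, adjusted p = 4.3e-07), Igfbp2 by -1.53 ± 0.14 (adjusted p = 7.0e-07) and Igfbp5 by -1.49 ± 0.14 (adjusted p = 7.0e-07). The change of Aqp4, with 65 counts in (B) and 19 in (C), was -1.73 ± 0.40 (adjusted p = 0.015), that of Slc1a3 -1.71 ± 0.36 (adjusted p = 0.0083) and that of Gfap -1.14 ± 0.31 (adjusted p = 0.041), all in edgeR's quasi-likelihood test. Timp3, Clu, Mlc1, Ntrk2 and Atp1b2 changed by -1.49 to -1.23, Cp by -0.91, Cpe by -0.34 and Glul by -0.22.

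The genes that had been higher in (B) than in (A) by the most were among those that did not pass the test between (C) and (B). Ednrb differed by 0.12 ± 0.13, Mfge8 by 0.09 ± 0.06, Lcn2 by -0.01 ± 0.30 and Gja1 by -0.11 ± 0.12, and the sign of Ednrb and of Lcn2 turned with single libraries left out. Htra1 differed by -0.44 ± 0.15 (adjusted p = 0.12 in edgeR's quasi-likelihood test). Whether the change of these genes differed from that of the 14 was not tested. Without the filter on low counts, 27 of the 31 genes with a count, 5 of them untested, were lower in (C) than in (B) by pooled CPM, 87.1% against 47.9% of all genes, and both (C) libraries lay below both (B) libraries in 21 of them, 67.7% against 17.7% of all genes. Several of the 14 calls depended on single libraries. Without (B) replicate 1 there were 7, without (B) replicate 2 there were 9, without (C) replicate 1 there were 11 and without (C) replicate 2 there were 6, each time all lower. Over all alternatives run the adjusted p of edgeR or DESeq2 reached 0.31 for Aqp4, 0.36 for Slc1a3 and 0.50 for Gfap. Sparc, Igfbp2, Igfbp5, Cp, Clu and Timp3 passed whichever of these libraries was left out. One fit over all 10 libraries called 4 of the 26, Sparc, Igfbp2, Igfbp5 and Cp.

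**Figure D4:**
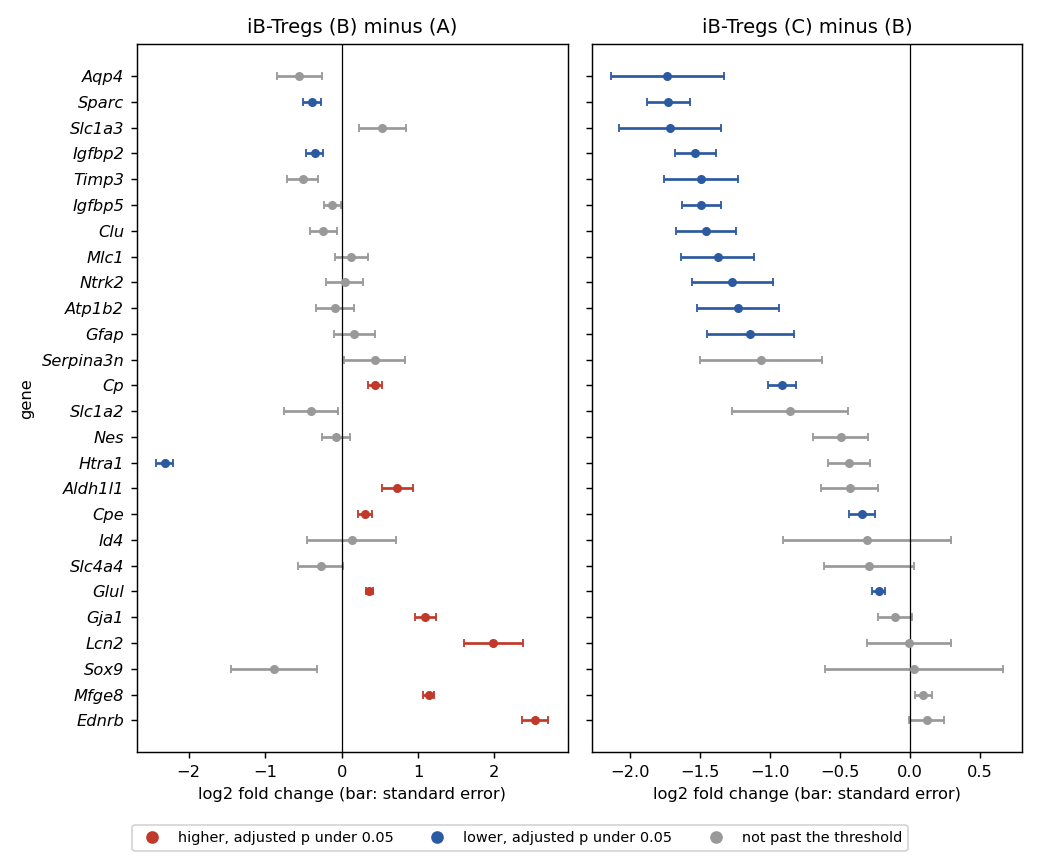
Log2 fold change of the 26 tested genes in iB-Tregs (B) minus (A), on the left, and (C) minus (B), on the right, with the standard error from edgeR as a bar and the call by colour. On the right 14 genes are called lower and none higher, and on the left Ednrb lies at 2.53 and Htra1 at -2.31.

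Marker genes of other cells of the culture were also lower in (C) for some lists. From (B) to (C), 2.28% of all genes tested fell and 1.47% rose. Of the microglia and macrophage genes, 9 of 17 fell (52.9%), with a median of -0.24. Among the astrocyte genes tested the share that fell was 53.8%, with a median of -0.89. Among pericyte and smooth muscle genes 2 of the 3 tested fell, with Acta2, smooth muscle actin, at -1.25 and Tagln, transgelin, at -1.04. Of 14 T cell genes, 2 rose, with a median of 0.08. The medians of 6 oligodendrocyte lineage, 4 neuronal and 5 fibroblast genes tested were -0.23, -0.03 and -0.13, and none of these genes was called. Of 4 endothelial genes tested 1 fell, with a median of -0.46, and of 2 B cell genes 1 fell, with a median of -0.12. The 1 ependymal and choroid plexus gene tested fell, by -0.86. The part of these cells in the lower astrocyte gene counts was not tested.

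Between iB-Tregs (C) and (A), 15 of the 26 genes were lower and 5 were higher, where 16.4% of all genes tested were lower and 18.4% higher (34.9% in either direction; without TMM factors 3596 of all genes were lower and 2055 higher in place of 2420 and 2708). This comparison shares libraries with both others. Htra1 differed by -2.75 ± 0.12 (adjusted p = 1.0e-14), Aqp4 by -2.28 ± 0.38 (adjusted p = 4.4e-05) and Sparc by -2.11 ± 0.15 (adjusted p = 9.3e-11) in edgeR's quasi-likelihood test. The 5 higher genes were Ednrb at 2.65 ± 0.17, Lcn2 at 1.98 ± 0.39, Mfge8 at 1.23 ± 0.07, Gja1 at 0.99 ± 0.14 and Glul at 0.14 ± 0.05, the last of which lost its call in 7 alternatives. DESeq2 and the 10-library fit each called 15 in place of 20, both without Gfap, Slc1a3, Nes, Slc1a2 and Glul. With single libraries left out 16 to 19 passed, Gfap and Slc1a3 being lost without (A) replicate 1 or (C) replicate 2, Nes without (A) replicate 2 or (C) replicate 2, and Slc1a2 without (C) replicate 1. Read over the 3 comparisons, 9 genes missed the threshold between (B) and (A) and were lower in (C) than in both. They were Slc1a3, Atp1b2, Mlc1, Gfap, Aqp4, Ntrk2, Clu, Timp3 and Igfbp5. Between (C) and (A), the losses of Gfap and Slc1a3 just given apply. Between (C) and (B), only Igfbp5 of the 9 kept its call in the 10-library fit, and several calls rested on single libraries, as given above. Another 4, Gja1, Ednrb, Mfge8 and Lcn2, were higher in (B) and in (C) than in (A), with no call between (B) and (C).

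The promoters of Ednrb and Htra1, the genes with the largest rise and the largest fall from (A) to (B), are printed here from RefSeq on GRCm38.p6, 250 bases before to 50 after the annotated start. The Ednrb window is chr14:103843652-103843951 on the minus strand and that of Htra1 is chr7:130935953-130936252 on the plus strand. Capitals mark matches, on either strand, to GGG, any 5 bases and CC, a loose form of the site of NF-kappaB, a factor downstream of the IL-33 receptor.

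Ednrb: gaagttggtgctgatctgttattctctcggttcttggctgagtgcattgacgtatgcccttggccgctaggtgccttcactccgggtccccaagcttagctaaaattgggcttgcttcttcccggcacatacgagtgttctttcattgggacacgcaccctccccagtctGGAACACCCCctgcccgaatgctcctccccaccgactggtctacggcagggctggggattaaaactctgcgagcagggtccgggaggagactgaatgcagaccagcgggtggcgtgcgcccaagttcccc
Htra1: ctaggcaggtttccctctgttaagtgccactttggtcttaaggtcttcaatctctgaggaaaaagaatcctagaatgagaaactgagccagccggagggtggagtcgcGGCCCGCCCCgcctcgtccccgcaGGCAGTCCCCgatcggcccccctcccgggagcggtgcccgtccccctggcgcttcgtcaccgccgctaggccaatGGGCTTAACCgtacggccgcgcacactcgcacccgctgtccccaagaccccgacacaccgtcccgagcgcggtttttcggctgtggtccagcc

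The letters matched in both windows, the gene that rose and the gene that fell, and in 17 of the 26 member promoters in the table (65.4%) against 50.4% of 27025 promoters of the same length. The AP-1 site TGANTCA, which is the same on both strands, was found in 2 of the 26 and in 7.93% of all promoters. TTCNNNGAA, the site of STAT factors and also its own reverse complement, was found in 3 of the 26 and in 8.47% of all. The NFI motif TTGGCA, searched on both strands, was found in 3 of the 26 and 14.4% of all, and ACAAAG, a core bound by SOX factors, in 1 of the 26 and 18.7% of all. A match describes the letters only.

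Further astrocyte genes outside the set gave a mixed picture. Over all genes tested, 15.4% rose and 14.8% fell from (A) to (B), and 1.47% rose and 2.28% fell from (B) to (C). Of 35 listed, 23 were tested between co-cultures, of which 7 rose and 4 fell from (A) to (B), with a median of 0.03, and 5 fell from (B) to (C), with a median of -0.18. The most abundant was Apoe, an apolipoprotein that macrophages also make, at 6633 and 6611 CPM in (B) and 4984 and 5410 in (C). Of 11 pan-reactive genes tested, 4 of those listed being members of the set, 5 rose and 2 fell from (A) to (B), and 2 fell from (B) to (C). Timp1, an inhibitor of metalloproteinases, was at 0.590 and 0.819 CPM in (A) and at 114 and 115 CPM in (B). The sum of the 13 listed pan-reactive genes went the other way, from 1640 to 1667 CPM in the (A) libraries to 1527 to 1547 CPM in the (B) libraries. This sum was also 588 to 705 CPM in SP-Tregs and 1684 to 1692 CPM in Ischemia-Tregs. In both of these groups the median gene of the list was at 0 CPM, so few genes carried the sum. Among 12 A1-type genes, named for astrocytes exposed to endotoxin, 4 rose and 3 fell from (A) to (B), and 1 rose and 1 fell from (B) to (C), the latter being C3, complement component 3, which went from 4982 and 4916 CPM to 3806 and 3713. The median A1-type gene was at 94.6 CPM in SP-Tregs, against 75.3, 77.4 and 79.1 CPM in (A), (B) and (C). The A1-type list is thus not particular to astrocytes in these libraries. Among 10 A2-type genes, named for astrocytes after ischemia, 3 rose and 2 fell from (A) to (B), and 3 rose and 1 fell from (B) to (C).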

How the data were processed

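RNA-seq of 10 mouse libraries was analysed, which the paper describes as poly(A)-selected and stranded without separating the groups. The authors deposited whole-number counts per gene, not normalized and not pooled, with a length per gene. Alignment and counting are described in differing ways, as Trim Galore, HISAT2 and featureCounts on GRCm38 in the paper and as HISAT2 (version 2.0.1) with HTSeq (version 0.6.1) in the submitters' processing notes, so the counter is uncertain.

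Counts in the SP-Treg and Ischemia-Treg columns stand below their gene ID by a number of rows that grows down the table and run 172 rows past the last ID. They were moved back by stretches, the last of which was displaced by 19 rows, for 24994 of 55401 IDs, which hold 83.0% to 91.9% of the counts of these libraries. At these IDs, nuclear protein-coding genes held 54.7% to 61.3% of the total counts of these libraries. Over all IDs, they held 95.0% to 95.4% in the iB-Treg libraries. Of the 32 genes, 14 were unmoved and 18 moved by at most 2 rows. In a window of 121 rows around each, log2 counts of these and the iB-Treg columns correlated with r of 0.848 to 0.956 at the shift used and at most 0.317 at any other shift up to 120 rows, as a description. Symbols and coordinates came from GENCODE vM21 on GRCm38.

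Groups followed the labels. Group differences came from edgeR 4.0.16 under R 4.3.3 (filterByExpr, TMM factors from the 10 libraries, quasi-likelihood test, Benjamini-Hochberg adjustment over all genes tested, threshold 0.05), in one fit of the 10 libraries for comparisons with SP-Tregs or Ischemia-Tregs (13124 genes) and one of the 6 iB-Treg libraries for the others (14714 genes). Standard errors are from these fits. Folds against a group without a count are bounds at 3 counts over the group. DESeq2 1.42.0, other scalings, other filters, other sets of libraries and each library left out were alternatives. The edgeR fit was tested on simulated data. All 32 genes were to be named, with at most 3 of each other list by level in iB-Tregs (B), and Acta2 and Tagln are among those. The members and lists were chosen with earlier results of these data known. Replicates differed by more than sampling noise in every group, but unequally. Chi-square per degree of freedom, a measure of this spread, was 29.2 in SP-Tregs and 35.5 in Ischemia-Tregs. It was 3.82 in iB-Tregs (A), 1.70 in (B) and 2.81 in (C).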

Additional observations from a re-analysis of the deposited data

How the results depend on the processing

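Between (C) and (B), 14 genes passed; with single libraries left out the range was 6 to 11, and the 10-library fit gave 4. Between (B) and (A), 11 passed; DESeq2 gave 7, the 10-library fit gave 6 and leaving out single libraries gave 8 to 10. Between Ischemia-Tregs and SP-Tregs, 8 passed; a fit of only the 4 libraries gave 1, where 4 genes passed the filter and Glul and Mfge8 lost their call, and leaving out single libraries gave 4 to 9. Over all genes tested, (C) against (B) gave 553 calls, with 292 by DESeq2, 20 in the 10-library fit, 887 in a fit of only the 4 libraries and 127 to 386 with single libraries left out. The 10-library fit gave 2136 calls in place of 4443 for (B) against (A) and 2581 in place of 5128 for (C) against (A), and the fit of 4 libraries gave 3025 in place of 5021 for Ischemia-Tregs against SP-Tregs. The 10-library fit includes the SP-Treg and Ischemia-Treg libraries, whose replicates differed by more than those of the iB-Treg groups. The causes of these differences in calls were not tested. Summed CPM without TMM scaling was 52.7 in SP-Tregs, 425 in (A), 497 in (B) and 385 in (C), and with DESeq2 size factors 335, 411 and 319 in (A), (B) and (C). Without Glul it was 16.8 in SP-Tregs, 37.1 in Ischemia-Tregs, 196 in (A), 228.5 in (B) and 166 in (C). No called gene changed direction in any alternative that could be fitted. Among named genes that missed the threshold, some turned with a single library left out. Gfap from (A) to (B) ran from -0.074 without (B) replicate 2 to 0.38. Between (C) and (B), Lcn2 ran from -0.13 to 0.11, turning without (B) replicate 2 (0.02) and without (C) replicate 1, and Ednrb ran from -0.019 without (C) replicate 1 to 0.25.

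The labels do not state whether equal replicate numbers pair the iB-Treg libraries. Differences between replicates 1 and 2 correlated across genes with r of 0.04 for (A) and (B), -0.04 for (A) and (C), and 0.01 for (B) and (C). These values cannot show whether libraries of the same number share mice or a culture. A replicate block left 11, 14 and 20 genes called between (B) and (A), (C) and (B), and (C) and (A), as without it. No paired analysis was possible for SP-Tregs and Ischemia-Tregs because their columns carry no replicate number. Gene levels near 1 CPM rest on few counts, and 6 genes were not tested.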
